A study of Homo sapiens with 4 samples.

Results

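The genes described here encode the aminoacyl-tRNA synthetases, the enzymes that attach each amino acid to its transfer RNA, together with the scaffold proteins AIMP1, AIMP2 and EEF1E1. They were chosen by symbol and not by any measured value, and 39 of the 18917 genes in the count table belong to the set. Of these, 20 are enzymes of the cytosol, 3 are the scaffold genes and 16 are enzymes of mitochondria. The cytosolic enzymes carry names such as LARS, and a 2 at the end marks the mitochondrial enzyme, as in LARS2. GARS and KARS serve both compartments and were counted with the cytosolic enzymes.

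Each synthetase recognizes the tRNAs of its amino acid, activates the amino acid with ATP and transfers it to the 3′ end of the tRNA. In animal cells several cytosolic synthetases and the scaffold proteins are held in the multisynthetase complex, whereas the mitochondrial enzymes are encoded by nuclear genes and imported. Uncharged tRNA and, in the paper's account, ribosome collisions activate the kinase GCN2. Its target eIF2α controls translation of the transcription factor ATF4, and ATF4 is known to drive many cytosolic synthetase genes through a C/EBP-ATF response element.

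RNA was sequenced from HEK-293T cells, a human embryonic kidney line that the sample labels call HEK293, in 4 libraries, WT replicates 1 and 2 and THUMPD1 KO replicates 1 and 2. THUMPD1 is the adapter through which the acetyltransferase NAT10 makes N4-acetylcytidine in leucine and serine tRNAs, so the comparison asks what the loss of this protein does to the transcriptome. All cells grew in DMEM with 10% serum and 2 mM glutamine, and the KO cells were made with CRISPR-Cas9 and single-cell sorting, so that genotype and clone cannot be told apart. The labels do not say that replicates came from separate cultures, and p-values therefore measure only the spread between these libraries.

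Total counts ran from 7875722 to 11362363 per library. THUMPD1 counts were 356 and 468 in WT and 71 and 58 in KO (log2 fold change -2.94, SE 0.17). Among the markers of HEK-293 cells, VIM was at 313 ± 6.03 CPM and LHX1 at 0.664 ± 0.167 CPM in WT (SD, n = 2), with PAX2, KRT8, KRT18 and NEFL between them. Of these 6, LHX1 (log2 fold change 2.13, SE 0.62, adjusted p = 0.0138) and NEFL (0.34, SE 0.09, adjusted p = 0.00903) were called higher in KO and KRT18 lower (-0.35, SE 0.10, adjusted p = 0.0152), and their part in the results was not tested. The markers PTPRC, ALB and PECAM1 of other cell types had at most 5 counts in any library, and COL1A1 was at 25.3 and 20.7 CPM in WT and 21.2 and 18.5 CPM in KO. CPM are counts divided by the TMM-scaled library size and given per 1000000.

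Genes that reached 1 CPM in 2 or more libraries, 13128 in all, entered the edgeR test, and a gene was called at a Benjamini-Hochberg adjusted p below 0.05. Of the 39 genes, 38 were tested. In KO, 5 of the cytosolic enzymes rose (TARS, CARS, GARS, IARS and MARS) and 3 fell (VARS, AARS and KARS). Of the mitochondrial enzymes 2 fell, EARS2 and LARS2. These counts stand beside 8.79% of all tested genes called higher and 12.1% called lower (1154 and 1594 genes, or 2081 and 1158 when scaled by library size alone). Among the 23 cytosolic genes 21.7% were called higher and 13.0% lower, and among the 15 tested mitochondrial genes 13.3% were called lower.

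No mitochondrial gene was called higher by edgeR, and the number higher at an unadjusted p below 0.05 was 0, as were the numbers called by DESeq2 and by limma-voom. The median log2 fold change was -0.001 over the cytosolic genes and -0.07 over the tested mitochondrial genes, against 0.01 over all tested genes. Scaling by library size alone moved these medians to 0.08, 0.01 and 0.10, so that the sign of both lists depended on the scaling. With that scaling 7 cytosolic genes were called higher and 2 lower, with upper quartile and with quantile scaling 6 and 2, and with TMM factors computed without chromosomes 16 and 22 5 and 5.

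**Figure D1:**
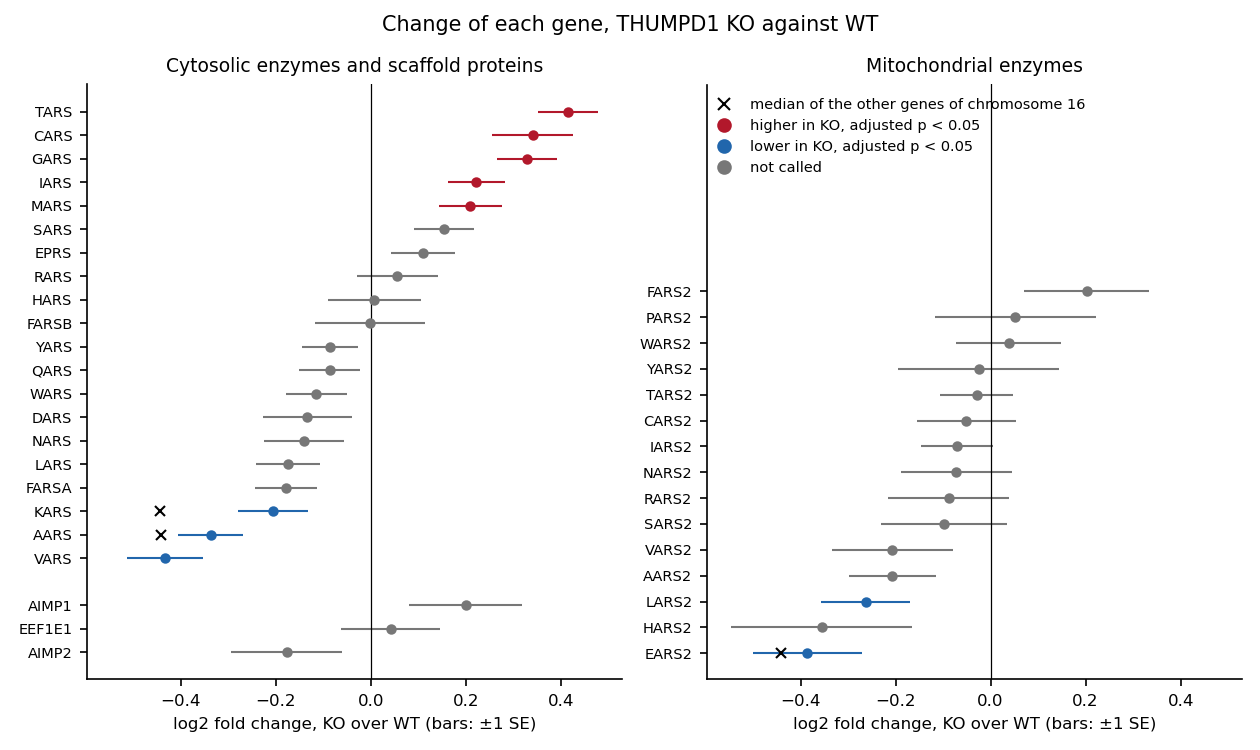
Log2 fold change of KO over WT (x axis) for each tested gene, with the cytosolic enzymes and the scaffold genes on the left and the mitochondrial enzymes on the right. Points are edgeR estimates from 2 libraries per genotype, bars are 1 SE, and crosses mark the median of the other genes of chromosome 16 for the 3 genes located there. The range ran from -0.43 (VARS) to 0.42 (TARS).

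TARS, the threonine enzyme (GRCh38 chr5:33440696-33468091), changed most among the genes that rose. It measured 189 and 189 CPM in WT and 253 and 251 CPM in KO, an increase of 33.3% (log2 fold change 0.42, SE 0.06, adjusted p = 3.19e-05). The libraries of each genotype lay close together, and the genotypes did not overlap.

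CARS, which charges cysteine (chr11:3000922-3057613), measured 67.9 and 67.6 CPM in WT and 85.8 and 85.9 CPM in KO. The increase was 26.7% (log2 fold change 0.34, SE 0.09, adjusted p = 0.00552). GARS, the glycine enzyme of both compartments (chr7:30580533-30634033), stood at 238 and 238 CPM in WT. In KO it stood at 289 and 309 CPM, 25.7% higher (log2 fold change 0.33, SE 0.06, adjusted p = 0.000445). For both genes the KO libraries lay above the WT libraries by more than the replicates differed.

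IARS, the isoleucine enzyme (chr9:92210207-92293854), rose by 16.6%, from 349 and 356 CPM in WT to 417 and 405 CPM in KO (log2 fold change 0.22, SE 0.06, adjusted p = 0.00857). Without KO replicate 1 its adjusted p was 0.0687. MARS, the methionine enzyme (chr12:57475445-57517569), measured 175 and 193 CPM in WT and 209 and 218 CPM in KO. Its increase of 15.6% (log2 fold change 0.21, SE 0.07, adjusted p = 0.0269) was not called without WT replicate 1 (adjusted p = 0.204), without KO replicate 2 (0.137) or by DESeq2 (0.0747). MARS shares 60 exonic bases with DDIT3 on the opposite strand. DDIT3 was at a mean of 4.51 CPM in WT and 3.86 CPM in KO, and whether reads were shared was not tested.

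**Figure D2:**
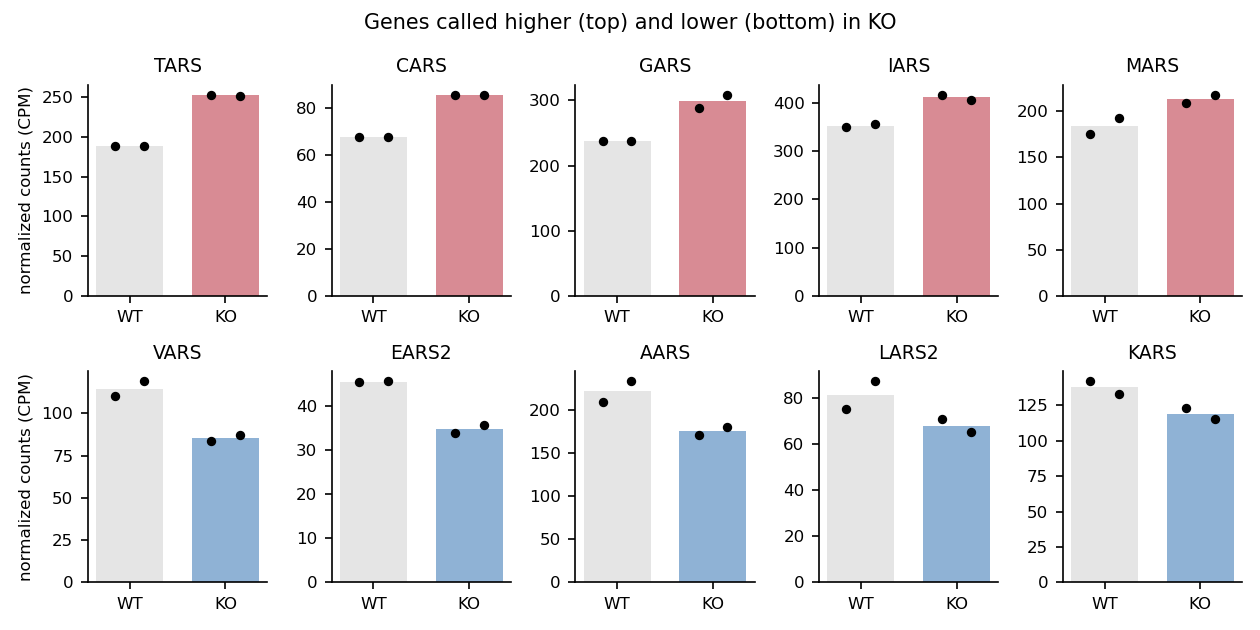
Normalized counts in CPM (y axis, from 0) of the 10 genes called in KO against WT, with 5 higher in the upper panels and 5 lower in the lower panels. Dots are single libraries and bars are means of 2 libraries. In all 10 panels both KO dots lie on the same side of both WT dots, with the smallest relative gaps in KARS, LARS2 and MARS.

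All 5 genes that rose belong to a list of 12 cytosolic synthetases commonly named as ATF4 targets (AARS, CARS, EPRS, GARS, IARS, LARS, MARS, NARS, SARS, TARS, WARS and YARS). In that list 5 were called higher and 1, AARS, lower, with a median log2 fold change of 0.13. Both KO libraries lay above both WT libraries for 7 of the 12 and below for 5. Over all tested genes those shares were 30.4% above and 30.0% below, and 8.79% were called higher and 12.1% lower. The remaining 8 cytosolic synthetases had a median of -0.11. Of these edgeR called 2 lower, VARS and KARS, and 0 higher (0 also at an unadjusted p below 0.05, by DESeq2 and by limma-voom). AARS and KARS lie on chromosome 16, whose genes are described below. The list was compiled with earlier results of these data known, so the division is a description. ATF4 itself, on chromosome 22, was at 839 and 835 CPM in WT and 939 and 935 CPM in KO. Its log2 fold change was 0.16 (SE 0.06), with an adjusted p of 0.0416, close to the threshold. In the paper, immunoblots of HEK-293T cells showed a subtle rise of phosphorylated eIF2α in THUMPD1 KO, which was sensitive to a GCN2 inhibitor. They showed no ATF4 activation by THUMPD1 KO alone. The paper's protein and transcript data showed no rise of ATF4 targets such as ASNS. Whether ATF4 had a part in the changes described here was not tested.

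Because these 5 genes all rose, the RefSeq promoters of all members (GRCh38.p14, 250 bases before to 50 bases after the start) were searched on both strands for the C/EBP-ATF response element, spelled TGATGNAA. Promoters were given for 33 of the 39 genes and not for DARS, LARS, VARS, YARS, AARS2 and VARS2. The element was present in 8 of the 33, among them each of the 5 genes that rose. Of the 4 genes called lower that had an entry, AARS alone held it, and of the 24 others NARS and YARS2 held it. By comparison it was present in 3.62% of all 35116 RefSeq promoters and, taking any promoter of a gene, in 2.87% of the 10602 tested genes with an entry. Within the ATF4 list, to which all 5 genes that rose belong, 7 of the 10 genes with an entry held it (70.0%). Among the 9 cytosolic members outside that list with an entry, 0 held it. Presence of the element thus went with membership of the list, and its relation to the rise in KO was not tested. The search followed from the calls, and the element was chosen with earlier results of these data known, so these shares are only a description. A match is a description of letters and not of bound factor, and some genes had several promoters listed, of which 1 matched in TARS, CARS and GARS.

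The matched stretches of the 5 genes that rose, and of AARS and NARS for comparison, are given 5′ to 3′ on the strand of the gene, with the element in capitals.
TARS, chr5:33440927-33440974, plus strand: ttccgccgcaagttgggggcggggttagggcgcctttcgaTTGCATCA
CARS, chr11:3057418-3057465, minus strand: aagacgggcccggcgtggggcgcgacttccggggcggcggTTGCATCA
GARS, chr7:30594805-30594868, plus strand: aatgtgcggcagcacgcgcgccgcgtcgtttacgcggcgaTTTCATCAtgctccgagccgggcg
IARS, chr9:92293698-92293750, minus strand: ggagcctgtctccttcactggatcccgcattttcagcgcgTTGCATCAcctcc
MARS, chr12:57488024-57488071, plus strand: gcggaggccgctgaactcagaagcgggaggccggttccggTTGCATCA
AARS, chr16:70289670-70289733, minus strand: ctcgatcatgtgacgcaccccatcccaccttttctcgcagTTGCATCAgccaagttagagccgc
NARS, chr18:57621815-57621862, minus strand: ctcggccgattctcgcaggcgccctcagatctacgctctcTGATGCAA

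In the 5 genes that rose the element was read on the strand opposite to the gene and lay close to the start, with its first base at position 3 in TARS, -2 in CARS, -33 in GARS, -13 in IARS and -4 in MARS (the start is position 1). In AARS it was also on the opposite strand, but its first base was at position -187. NARS held it on the strand of the gene with its first base at 15. The letters of the element were the same in TARS, CARS, IARS, MARS and AARS, and GARS differed from these within the element.

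**Figure D3:**
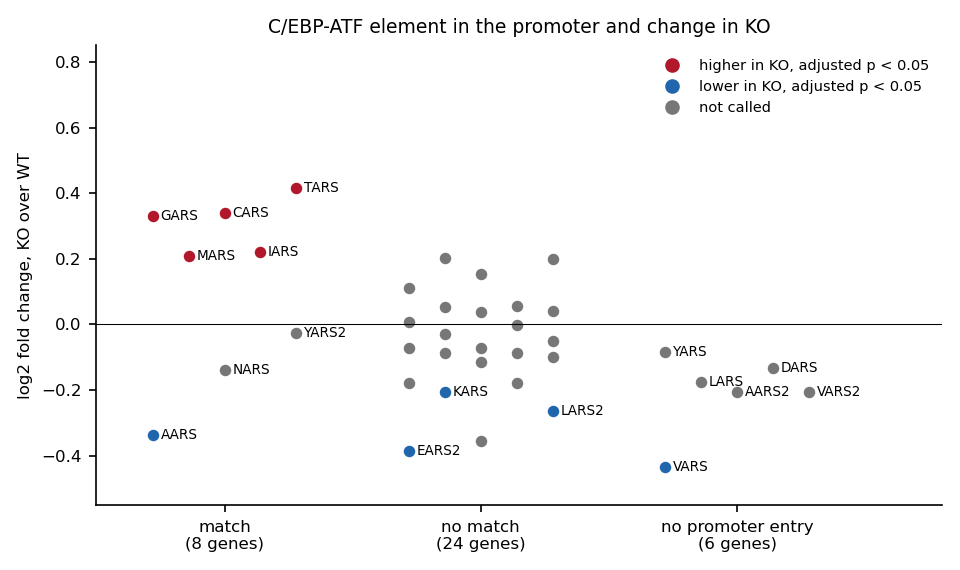
Log2 fold change of KO over WT (y axis) of the 38 tested genes, grouped by whether a RefSeq promoter of the gene held the C/EBP-ATF element (8 genes), did not (24 genes) or was not listed (6 genes); the horizontal spread within a group has no meaning. The 5 genes called higher, from 0.21 to 0.42, all stand in the first group, which also holds AARS at -0.34. The grouping was made with the calls known and is a description.

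The other genes of the ATF4 list were not called. SARS, the serine enzyme, was at 308 and 329 CPM in WT and 343 and 367 CPM in KO (log2 fold change 0.16, SE 0.06, adjusted p = 0.0832), and it was called under 4 of the 8 alternative settings. EPRS, which charges glutamate and proline, had a log2 fold change of 0.11 (SE 0.07, adjusted p = 0.267). Those of LARS, NARS, WARS and YARS lay between -0.17 and -0.09, with adjusted p from 0.0699 to 0.329, and for each of these 4 genes both KO libraries were below both WT libraries.

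LARS and SARS charge the tRNAs that carry the THUMPD1-dependent acetylation. The paper measured charging of leucine tRNAs in HEK-293T cells and found no significant decrease in THUMPD1 KO. LARS, the leucine enzyme, was at 176 and 183 CPM in WT and 163 and 155 CPM in KO, without overlap (log2 fold change -0.17, SE 0.07, adjusted p = 0.0699). The estimates for LARS and SARS thus had opposite signs, and neither passed the test. LARS was called lower with TMM factors computed without chromosomes 16 and 22 (adjusted p = 0.0406) and under 1 other of the 8 alternative settings. Their mitochondrial counterparts were LARS2, which fell, and SARS2, whose libraries overlapped at 31.3 and 38.9 CPM in WT and 30.8 and 35.3 CPM in KO (log2 fold change -0.10, SE 0.13, adjusted p = 0.648).

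VARS, the valine enzyme (chr6:31777518-31795752), had the lowest log2 fold change of all tested members. It measured 110 and 119 CPM in WT and 83.4 and 87.0 CPM in KO, and fell by 25.9% (log2 fold change -0.43, SE 0.08, adjusted p = 0.000282). Only 46 of the other 694 tested genes of chromosome 6 had a lower log2 fold change.

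AARS, the alanine enzyme (chr16:70251983-70289707), measured 210 and 234 CPM in WT and 171 and 181 CPM in KO. It fell by 20.9% (log2 fold change -0.34, SE 0.07, adjusted p = 0.000846). KARS, the lysine enzyme of both compartments (chr16:75627474-75648643), measured 142 and 133 CPM in WT and 123 and 115 CPM in KO. It fell by 13.3% at an adjusted p of 0.0497 (log2 fold change -0.21, SE 0.07), just inside the threshold. KARS was called under 3 of 8 alternative settings and in 1 of 4 fits that left out a library.

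EARS2 (chr16:23520754-23557731), the mitochondrial enzyme that puts glutamate on tRNAs for glutamate and glutamine, is also on chromosome 16. It measured 45.3 and 45.6 CPM in WT and 33.9 and 35.6 CPM in KO, and fell by 23.5% (log2 fold change -0.39, SE 0.12, adjusted p = 0.0166). Its adjusted p rose to 0.0664 without WT replicate 2 and to 0.118 without KO replicate 1, and DESeq2 gave 0.0686.

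These 3 genes are the only members on chromosome 16, and all 3 were called lower. Over the other 572 tested genes located there the median was -0.44, and 87.4% of them were below 0. Relative to that median AARS stood at 0.11, KARS at 0.24 and EARS2 at 0.06, so that each was higher than the middle of its chromosome. THUMPD1, the targeted gene, also lies on chromosome 16, and the source of the low median there was not tested. No member lies on chromosome 22. Over the remaining chromosomes 5 members were called higher and 2 lower, VARS and LARS2, among 35 tested (14.3% and 5.71%). Over all tested genes, with those of chromosome 16 included, the shares were 8.79% and 12.1%.

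**Figure D4:**
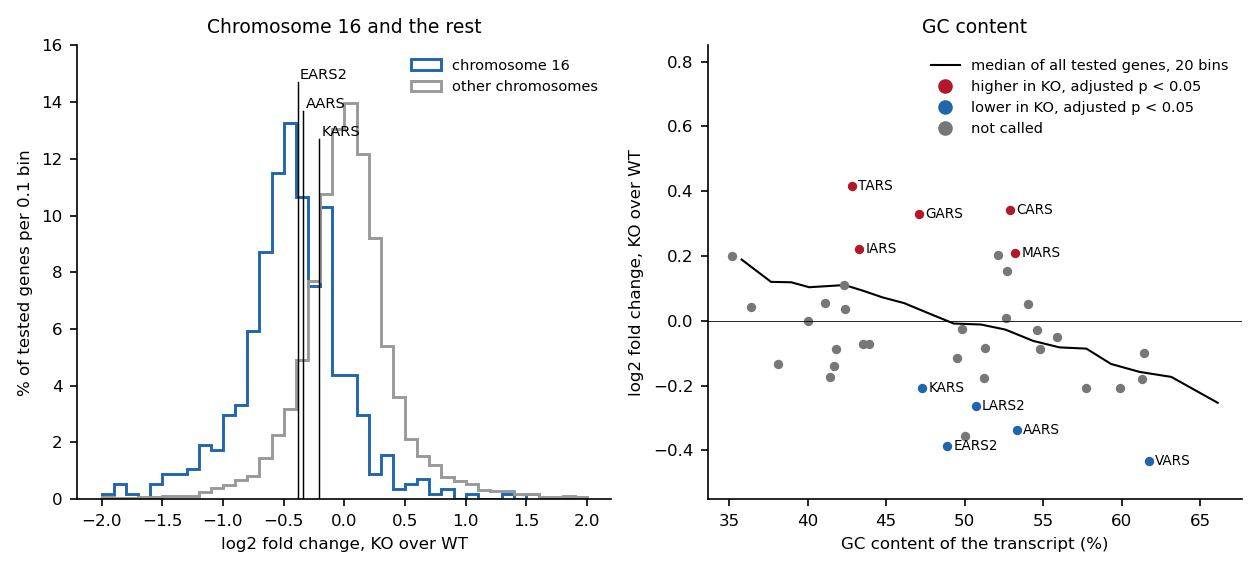
Left, distribution of the log2 fold change of KO over WT (x axis) as the share of tested genes in each bin (y axis) for chromosome 16 and for the other chromosomes, with AARS, KARS and EARS2 marked by lines; all 3 lie to the right of the middle of chromosome 16, at -0.44. Right, log2 fold change of the 38 genes (y axis) against the GC content of the transcript (x axis), with the median of all tested genes in 20 bins of GC content as a line that runs from 0.19 to -0.25.

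Across all tested genes the log2 fold change declined with the GC content of the transcript, from a median of 0.19 in the bin at 35.8% GC to -0.25 in the bin at 66.1% GC. Relative to the median of its own GC bin, VARS (61.7% GC) stood at -0.28 and TARS (42.8% GC) at 0.30. IARS (43.3% GC) stood at 0.13, MARS (53.2% GC) at 0.24, CARS (52.9% GC) at 0.37 and GARS (47.1% GC) at 0.30. All 10 called genes kept their direction on this scale, and the part of GC content in their changes was not tested further.

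Among the leucine codons of the coding sequence, the share that read UUA, UUG, CUU or CUA had a median of 40.8% over the tested genes. It was 46.5% over the 5 genes that rose, from 32.9% in CARS to 54.2% in TARS, and 31.5% over the 5 that fell, from 21.6% in EARS2 to 42.0% in LARS2. The ranges of the groups overlapped, and the difference was not tested. The shares were not adjusted for GC content, and 3 of the 5 genes that fell lie on chromosome 16.

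Cytosolic enzymes inside and outside the multisynthetase complex were called in both directions. Of the 8 synthetase genes of the complex, IARS and MARS rose and KARS fell, with a median log2 fold change of -0.02. Of the 12 outside it, TARS, CARS and GARS rose and VARS and AARS fell, with a median of -0.04. The 9 class I enzymes had 3 called higher and 1 lower, and the 10 class II enzymes 2 and 2 (EPRS has catalytic sites of both classes and was left out). Over all tested genes 8.79% were called higher and 12.1% lower, and KARS and AARS lie on chromosome 16.

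None of the 3 scaffold genes was called by edgeR, by DESeq2 or by limma-voom, and none had an unadjusted p below 0.05 (0 of 3 in each case). AIMP1, which anchors the arginine enzyme in the complex and is also secreted as a cytokine, was at 47.2 and 36.9 CPM in WT and 48.9 and 46.9 CPM in KO. Its log2 fold change was 0.20 (SE 0.12, adjusted p = 0.252), and without WT replicate 1 it was 0.38 (adjusted p = 0.0431), so that this library decided whether it was called. AIMP2, the central scaffold protein, was at 40.4 and 44.5 CPM in WT and 38.8 and 36.5 CPM in KO (log2 fold change -0.18, SE 0.12, adjusted p = 0.301). AIMP2 shares 532 of the 1198 bases of its transcript with EIF2AK1 on the opposite strand, and EIF2AK1 stood at 225 CPM in WT and 222 CPM in KO. Since the use of strand in counting is not stated, the AIMP2 counts are uncertain. EEF1E1, the smallest of the scaffold proteins, was at 72.1 and 56.1 CPM in WT and 64.9 and 66.1 CPM in KO, and its genotypes overlapped (log2 fold change 0.04, SE 0.11, adjusted p = 0.818).

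LARS2 (chr3:45388561-45554726) measured 75.1 and 87.4 CPM in WT and 70.8 and 65.2 CPM in KO. It fell by 16.6% at an adjusted p of 0.0467 (log2 fold change -0.26, SE 0.09), with a gap between the genotypes narrower than the gap between the WT libraries. Without WT replicate 2 its log2 fold change was -0.14 (adjusted p = 0.454), and without KO replicate 2 it was -0.20 (adjusted p = 0.23).

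The other mitochondrial enzymes were not called. FARS2, the phenylalanine enzyme, had the highest log2 fold change of this group, with 27.8 and 28.8 CPM in WT and 34.8 and 30.2 CPM in KO (log2 fold change 0.20, SE 0.13, adjusted p = 0.301). HARS2, the histidine enzyme, had 109 and 203 counts in WT and 143 in each KO library, which gave 16.3 ± 3.01 against 12.9 ± 0.76 CPM (SD, n = 2). Its log2 fold change was -0.36 (SE 0.19, adjusted p = 0.194). This was the largest SE among the tested members. Both KO libraries lay below both WT libraries for 6 of the 15 tested mitochondrial genes and above for 2, and overlapped for 7, where 30.0% of all tested genes lay below and 30.4% above. Summed over the 16 genes, the mitochondrial enzymes made up 778 and 797 CPM in WT and 740 and 726 CPM in KO, whereas the cytosolic genes summed to 3875 and 3932 CPM in WT and 3932 and 4014 CPM in KO.

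MARS2, the mitochondrial methionine enzyme, had 0 counts in all 4 libraries. It is a single-exon gene. Apart from olfactory receptor genes, 342 of the 739 single-exon coding genes in the table (46.3%) had 0 counts in every library, against 5.96% of the 17240 coding genes with several exons. A count of 0 allows up to 3 counts per library, for counting error only, but the level of MARS2 cannot be read from this table.

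Levels were compared between genes only per length, as TPM computed from the counts and the length of the reference transcript. In WT the median over the 23 cytosolic genes was 138 TPM and that over the 16 mitochondrial genes 36.6 TPM, and by coding length these medians were 62.4 and 23.1 TPM. By transcript length YARS, the tyrosine enzyme, was the highest at 498 ± 15.5 TPM in WT (SD, n = 2), followed by SARS at 376 ± 17.2 TPM and FARSA at 275 ± 3.36 TPM. These did not overlap. After them QARS, at 242 and 223 TPM, and GARS, at 221 and 220 TPM, were closer to each other than the libraries of QARS were.

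FARSA and FARSB encode the subunits of the phenylalanine enzyme, which are joined in equal number. In WT they measured 275 ± 3.36 and 17.6 ± 2.11 TPM, and in KO 247 ± 14.5 and 17.7 ± 2.82 TPM (SD, n = 2). By transcript length FARSB was the lowest of the cytosolic genes. The lengths used were 1811 and 6761 bases, and the ratio of the subunits in WT was 15.8 by transcript length but 4.90 by coding length, so its size rests on the transcript taken. FARSA was lower in both KO libraries, at 186 and 204 CPM against 218 and 223 CPM in WT, and just outside the threshold (log2 fold change -0.18, SE 0.07, adjusted p = 0.0564). FARSB had a log2 fold change of -0.001 (SE 0.12, adjusted p = 0.996), with overlapping genotypes.

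For 12 amino acids a single cytosolic gene and a single mitochondrial gene, named alike, both had counts. Phenylalanine, glutamate and proline, whose cytosolic enzymes have separate subunits or share the gene EPRS, were left out. The cytosolic gene had the higher TPM in WT for 11 of the 12, with a median ratio of 2.58. The highest ratio was that of YARS to YARS2, at 24.0. Cysteine was the exception, with CARS at 56.1 and 55.6 TPM and CARS2 at 62.4 and 60.5 TPM in WT. In KO CARS was at 71.9 and 71.6 TPM and CARS2 at 62.1 and 57.9 TPM, so that their order was reversed. The mean ratio was 0.91 in WT, and by coding length it was 0.92 in WT and 1.21 in KO. For threonine the ratio of TARS to TARS2 was 1.65 and 1.63 in WT and 2.37 and 2.11 in KO.

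**Figure D5:**
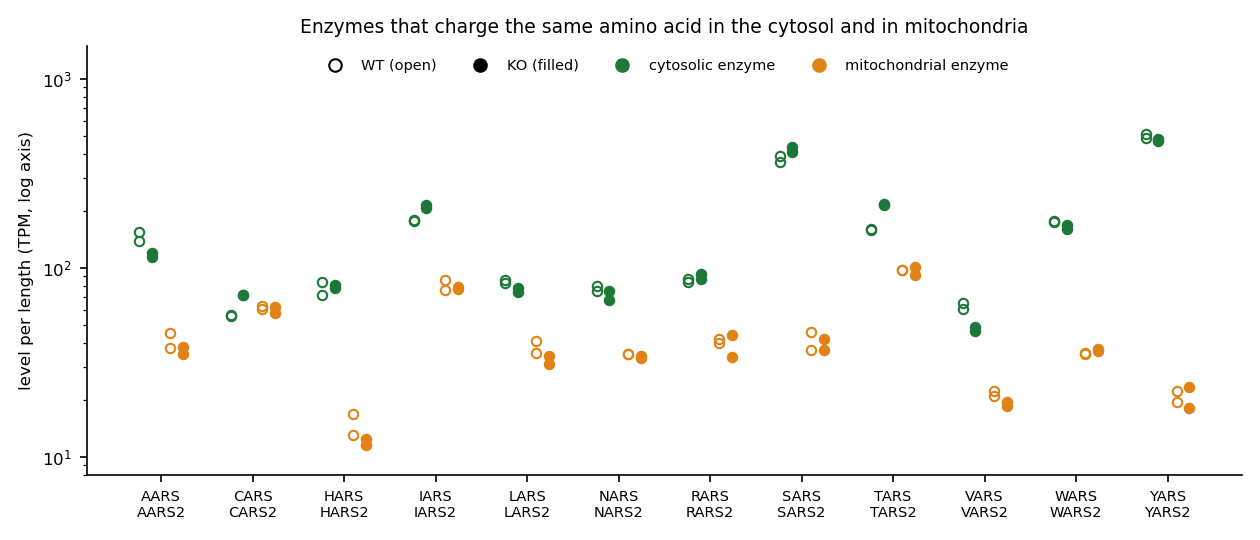
Level per length in TPM (y axis, log scale) of the cytosolic and the mitochondrial enzyme for 12 amino acids, 1 point per library, open for WT and filled for KO. The cytosolic gene was higher in WT for 11 of the 12, from 1.64 times for TARS over TARS2 to 24.0 times for YARS over YARS2, and only CARS was below CARS2 in WT.

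A list of 23 partner genes of tRNA charging covered proofreading, transamidation and formylation, delivery to the ribosome, selenocysteine synthesis, and tRNA export and sensing. Of the list, 22 genes were tested. Of these 3 were called higher (13.6%) and 2 lower (9.09%), beside 8.79% and 12.1% of all tested genes, and the median log2 fold change was 0.05. The count called higher ran from 1 with DESeq2 to 7 with scaling by library size alone. EEF1A1, the elongation factor that brings charged tRNA to the ribosome, measured 2380 and 2290 CPM in WT and 2990 and 2850 CPM in KO (log2 fold change 0.32, SE 0.06, adjusted p = 0.000279). Its paralog EEF1A2 fell from 66.4 and 71.6 CPM to 43.1 and 46.2 CPM (log2 fold change -0.63, SE 0.10, adjusted p = 5.37e-05). The genotypes did not overlap for either paralog. EEF1A1 is known to have many processed pseudogenes, and whether reads were shared with them was not tested.

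EIF2AK4, which encodes GCN2, the sensor of uncharged tRNA, measured 59.6 and 58.9 CPM in WT and 80.8 and 67.9 CPM in KO (log2 fold change 0.33, SE 0.10, adjusted p = 0.0174). DESeq2 did not call EIF2AK4, and its KO libraries differed by more than the gap between the genotypes. The GCN2 partner GCN1L1 was at 347 and 360 CPM in WT and 363 and 362 CPM in KO and was not called. Among 6 genes of selenocysteine synthesis, which starts from serine that SARS attaches to tRNA, SEPHS1 rose (log2 fold change 0.19, SE 0.07, adjusted p = 0.045) and SEPHS2, on chromosome 16, fell (-0.53, SE 0.09, adjusted p = 0.000138). SEPHS1 was not called by DESeq2. SEPSECS, which makes the final conversion to selenocysteine, had the highest log2 fold change of the 22, at 0.65 (SE 0.36, adjusted p = 0.209), with 24 to 79 counts per library. The 4 genes of mitochondrial transamidation and formylation were not called by edgeR, DESeq2 or limma-voom, and MTFMT, which formylates the methionine that MARS2 attaches, had the lowest of them, -0.41 (SE 0.17, adjusted p = 0.0866). The proofreading genes DTD1 and DTD2 were at -0.09 and -0.12 and were not called.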

How the data were processed

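RNA of 4 libraries, 2 WT and 2 THUMPD1 KO, was analysed, and genotype and replicate were taken from the sample labels. The count table deposited by the authors holds whole-number read counts for each gene symbol, without normalization. The submitters' processing notes name hg19. In the study's methods RNA-seq has 3 samples for each genotype and uses STAR and RSEM on another build; the pipeline behind these counts is not given in the sources used here. A further table holds the authors' own comparison (base means, log2 fold changes with errors, p-values) and was not used. The kit is given differently in the labels and in the methods.

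The quasi-likelihood fit of edgeR 4.0.16 (R 4.3.3, TMM factors) took genes that reached 1 CPM in 2 or more libraries, and p-values were adjusted over all 13128 genes. The common biological coefficient of variation was 6.75%. A standard error was the log2 fold change divided by the square root of F. An exact permutation test of 2 against 2 cannot go below 0.333 and was not used. DESeq2 1.42.0 and limma 3.58.1 served as alternatives, with other scalings and filters, a replicate block and leaving out each library. The test was checked on simulated counts.

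Positions, transcript lengths, GC content and codons came from GENCODE 44 on GRCh38 (the MANE Select or Ensembl canonical transcript where marked). Of the 39 genes, 21 matched by symbol and 18 by an older symbol. Pseudogenes named after 13 of them may share reads, as may overlapping genes, and this was not tested. Tables and plots were made in Python 3.11.15 with pandas 2.3.3, NumPy 2.4.6 and matplotlib 3.10.9.

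Full values were given for called genes, the leucine and serine enzymes, scaffold genes, genes on chromosomes 16 and 22, and the highest and lowest of each compartment; other genes were picked with their values in view. The members, lists and promoter motif were chosen with earlier results of these data known. The GC comparison and the medians without chromosome 16 were added after seeing the data.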

Additional observations from a re-analysis of the deposited data

How the results depend on the processing

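The calls of TARS, CARS, GARS, VARS and AARS held under all 8 alternative settings and in all 4 fits without a library. IARS held under 8 and in 3, MARS under 7 and in 2, EARS2 under 6 and in 2, LARS2 under 4 and in 2, and KARS under 3 and in 1. The cause of the losses was not tested. With library size alone, 2081 genes were higher, 7 partner genes were higher, 0 mitochondrial genes were lower and the medians were 0.084 (cytosolic) and 0.013 (mitochondrial). DESeq2 gave 643 genes higher, 1 partner gene higher and 0 mitochondrial genes lower. Quantile limma-voom gave 5 partner genes higher and 1 mitochondrial gene lower, and upper quartile scaling 1 lower. TMM factors without chromosomes 16 and 22 gave 5 cytosolic genes lower. By coding length the median levels in WT were 62.4 TPM (cytosolic) and 23.1 TPM (mitochondrial).

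Only uncalled genes changed sign with another scaling; values that round to 0.00 were given no sign, which leaves out FARSB (-0.001, and 0.084 with library size alone). With library size alone CARS2 was at 0.034, IARS2 at 0.014, NARS2 at 0.013, TARS2 at 0.055 and YARS2 at 0.06. HARS was at -0.013 with TMM factors without chromosomes 16 and 22, and TARS2 at 0.019 with quantile limma-voom. Relative to the median of their chromosome AARS (0.105), KARS (0.237) and EARS2 (0.056) changed sign among the called genes, and HARS (-0.061), RARS (-0.013) and EEF1E1 (-0.021) among the others.

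Without 1 library in turn, the counts of genes ran from 606 to 1106 higher and from 1011 to 1493 lower. The lowest of both came without KO replicate 1. Mitochondrial genes called lower ran from 0 (without WT replicate 2) to 3 (without WT replicate 1). The medians ran from -0.089 (without WT replicate 2) to -0.022 for the cytosolic and from -0.161 (without KO replicate 1) to -0.054 for the mitochondrial genes. The remaining genotype then has 1 library, assumed to vary like the other. HARS, YARS2, EEF1E1, PARS2, SARS2, TARS2 and RARS2, all uncalled, changed sign, with ranges of -0.097 to 0.135 (HARS), -0.219 to 0.144 (YARS2), -0.139 to 0.223 (EEF1E1), -0.216 to 0.276 (PARS2), -0.237 to 0.076 (SARS2), -0.104 to 0.049 (TARS2) and -0.287 to 0.087 (RARS2). FARSB ran from -0.168 to 0.149 and IARS2 from -0.149 to 0.004.

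The replicate numbers are shared by label only. The differences between the replicates of WT and of KO correlated at r = 0.0586 over 11113 genes, so the numbers were not taken to pair the libraries. With the replicate block 5 cytosolic genes were lower, FARSA and LARS in addition, and 6 higher, SARS in addition. Depth limits the genes of few counts: with 109 to 203 counts HARS2 had an SE of 0.19.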
